A study of Mus musculus with 14 samples.

Results

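Cultured brown fat cells were set against brown fat itself. The comparison used 7 of the 14 samples of the series: 3 libraries of a mouse brown adipose tissue (BAT) cell line that had received only vehicle, and 4 libraries of BAT from mice. They were chosen by their labels, which name the group and number the replicates. Polyadenylated RNA was sequenced in both cases. The cells had been induced to become fat cells for 3 days with the glucocorticoid dexamethasone (2 µg/ml), the phosphodiesterase inhibitor IBMX (500 µM), insulin (5 µg/ml), the thyroid hormone T3 (1 nM) and the PPARγ ligand rosiglitazone (100 nM), an entry to which the labels add the words beige cells. From then on they were kept in medium with serum, and DMSO was added at day 7 for 24 h. The tissue was taken at 22 weeks of age from C57BL/6N mice after 14 weeks on a high-fat diet, in which fat gave 60% of the energy, and no tissue of mice on another diet was analysed here. The other 7 libraries, perigonadal white adipose tissue (WAT) of mice of the same strain, age and diet and cells given blebbistatin, an inhibitor of myosin II, were used only for levels. The labels do not give the strain or sex behind the line, say whether it is a single clone, or say that the replicates were separate cultures or animals, so p-values measure only the spread between these libraries. Culture, cell line, experiment and deposited table divide the libraries in the same way and cannot be told apart.

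Brown fat cells burn fatty acids in densely packed mitochondria. Uncoupling protein 1, encoded by Ucp1, lets protons leak back across the inner mitochondrial membrane so that respiration yields heat. Noradrenaline released by sympathetic nerves drives this through β-adrenergic receptors and cyclic AMP, and the cells share part of their ancestry and several mitochondrial protein isoforms with skeletal muscle. In the animal they sit among capillaries, nerves, immune cells and fibroblasts. A cultured line has only the cells on the dish, a stiff support and the hormones of the medium.

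Levels below are transcripts per 1000000 (TPM), obtained by rescaling each deposited RPKM column to sum to 1000000 over genes, so levels are per length. Reads in genes numbered 10685378 to 14176846 per vehicle library but only 1014959 to 2335058 per BAT library, so low levels are less certain in BAT. Of the mapped reads that the deposited values imply, 75.2% to 82.3% fell in genes in the cells and 19.1% to 42.3% in BAT (p = 0.057 in a two-sided exact permutation test, the minimum possible with 35 splits). The WAT libraries had 71.1% to 83.0% in genes and 6859404 to 16091372 reads in genes. Low share and depth thus marked the BAT libraries and not tissue in general, and their cause was not tested. Some libraries stood apart. BAT replicate 4 carried a summed sarcomere level of 43113 TPM, against 3067 to 5265 TPM in the other BAT libraries. Vehicle replicate 1 had 3.45% of its reads in the ribosomal RNA precursor Rn45s, against 0.784% and 0.856% in replicates 2 and 3. Across genes, which are not independent replicates, vehicle libraries correlated with each other at 0.980 to 0.993, BAT libraries at 0.928 to 0.967, and libraries of different groups at 0.616 to 0.695.

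A large share of the transcriptome differed. Of 14169 genes tested with limma on log2(TPM + 1), 6324 were higher in the cells (44.6%) and 2139 lower (15.1%), where a call needs an adjusted p under 0.05 and an absolute log2 difference of at least 1. Differences are given as cells minus tissue. The split between higher and lower depended on how libraries were scaled, and the labels name no spike-in that would fix the scale. The median tested gene differed by 0.84 on TPM, by 0.19 after TMM scaling (trimmed mean of M-values) and by -0.23 after centring library medians. TMM scaling called 3692 genes higher (26.1%) and 3187 lower (22.5%), and centring called 2365 higher (16.7%) and 4213 lower (29.7%). Count tests on the reads recovered from the deposited signal gave 2911 of 12069 genes higher (24.1%) and 3035 lower (25.1%) with edgeR, and 3147 of 17952 higher (17.5%) and 5118 lower (28.5%) with DESeq2. On RPKM as deposited the median was 1.19, with 7941 genes higher (56.0%) and 832 lower (5.87%). An adjusted p under 0.05 with no bound on the difference held for 57.4% of genes higher and 19.9% lower. Genes called in the same direction on TPM, with TMM factors and with centred medians numbered 2365 higher (16.7%) and 2137 lower (15.1%). A gene is described below as higher or lower only where limma called it on TPM, and an alternative, other than one with the replicate number as a term, that ended the call is named beside it after the word lost. Alternatives that gave a call to a gene described as not called are mostly not named. Of named genes not called on TPM, 15 gained a call with TMM factors, 18 with centred medians, 17 with edgeR and 17 with DESeq2. On deposited RPKM 10 gained one. Not called therefore does not mean equal in every scaling. Shares of a gene list that were called are read against the shares of all genes above, 44.6% higher and 15.1% lower on TPM, 26.1% and 22.5% with TMM factors, and 16.7% and 29.7% with centred medians. A signed number that stands alone in parentheses after levels is a log2 difference on log2(TPM + 1). Groups of the 2 kinds of library did not overlap for 8064 genes that were higher in the cells (56.9%) and 2721 that were lower (19.2%), so separation alone marks no gene out.

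**Figure D1:**
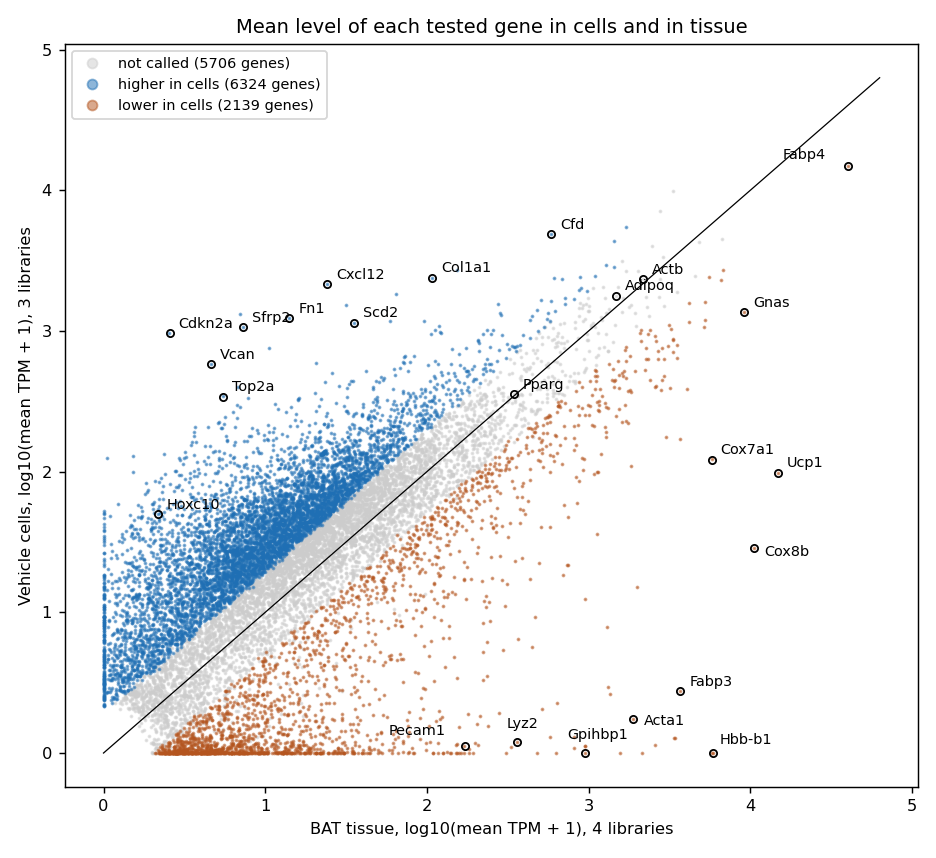
Mean level of each of the 14169 tested genes, as log10(mean TPM + 1), in 4 BAT libraries (horizontal axis) and 3 vehicle libraries (vertical axis), with the line of equal level. Ucp1, Cox8b, Cox7a1 and Fabp3 lie far below the line while Adipoq, Pparg and Actb lie near it, and Cdkn2a, Vcan, Fn1, Cxcl12 and Top2a lie far above it.

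Ucp1 and most other genes of the thermogenic list were lower in the cells than in tissue, while a few regulators of brown identity were higher. Ucp1 (chr8:85814247-85822355, mm9) stood at 175, 76.8 and 39.4 TPM in vehicle replicates 1 to 3 and at 12508, 14856, 18782 and 12874 TPM in BAT replicates 1 to 4. The lowest tissue value was far above the highest value in the cells, and vehicle replicate 1 was the highest of its group (log2 difference -7.47, SE 0.42, adjusted p = 8.57e-07). In WAT Ucp1 ranged from 0.19 to 2.09 TPM and in blebbistatin cells from 12.8 to 22 TPM. The labels describe the differentiated cells as holding UCP1 comparable to BAT by quantitative PCR, with GAPDH ahead of UCP1 by 2 to 3 cycles. In the sequencing, log2 of Gapdh over Ucp1, a ratio that needs no scaling, was 2.98, 3.45 and 4.12 in the vehicle libraries and -3.73, -3.65, -4.02 and -3.33 in BAT. Gapdh thus exceeded Ucp1 in every cell library, and Ucp1 exceeded Gapdh in every BAT library. A difference in cycles is another measure than a ratio of sequenced levels and cannot be set directly against it. The labels give day 6 for differentiated cells, whereas the vehicle was added at day 7 for 24 h. Cidea, a lipid droplet protein, was at 220, 170 and 120 TPM in the cells and 3502, 3852, 4609 and 2706 TPM in BAT (log2 difference -4.44, SE 0.24, adjusted p = 5.26e-07). Elovl3, a fatty acid elongase, was at 23.4, 13.7 and 7.82 TPM and 62.2, 108, 149 and 116 TPM (log2 difference -2.84, SE 0.37, adjusted p = 9.17e-05), again with vehicle replicate 1 highest among the cells and no overlap with tissue.

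Of the 30 genes of the thermogenic list 29 passed the filter on low values, of which 22 were lower in the cells and 3 higher, against 15.1% lower and 44.6% higher among all genes tested. As 5 of the 30 were under 1 TPM in every vehicle library, some entered the test only through the tissue. The median log2 difference was -1.93 on TPM, -2.55 with TMM factors, -3.0 with centred medians and -0.97 on deposited RPKM, and 13 were lower on deposited RPKM. Dio2, the deiodinase that makes active thyroid hormone inside the cell, was at 1.04 to 2.04 TPM in the cells and 20.9 to 42.6 TPM in BAT (log2 difference -3.65). Slc27a2, a fatty acid transporter and very long-chain acyl-CoA synthetase, had no read in any vehicle library and stood at 64.1, 111, 175 and 111 TPM in BAT, which makes it at least 1299-fold lower in the cells when 3 reads over the vehicle group are taken as the limit (adjusted p = 2.08e-07, limma). Ppargc1a, the coactivator PGC-1α that drives mitochondrial gene expression, was at 2.91 to 5.22 TPM and 14.9 to 20.5 TPM (log2 difference -1.93, lost with deposited RPKM). Ppara, a nuclear receptor for fatty acid oxidation genes, was at 23.5 to 26.5 TPM and 61.3 to 101 TPM (log2 difference -1.68, lost with deposited RPKM). The genes that stood higher in the cells were transcription factors of brown identity. Zic1, a marker of classical brown fat, was at 36.6, 36 and 44.8 TPM in the cells and 4.95, 5.42, 10 and 7.27 TPM in BAT, with every cell library above every tissue library (log2 difference 2.38, SE 0.23, adjusted p = 1.26e-05). Ebf2 was at 40.1 to 47.9 TPM and 11.7 to 17.6 TPM (log2 difference 1.52, lost with TMM, centring, edgeR and DESeq2). Prdm16, the cofactor that sets brown over muscle fate, was at 13.4 to 16.9 TPM and 3.59 to 10.3 TPM (log2 difference 1.07, lost with TMM, centring, edgeR, DESeq2, a total without the most abundant genes and a pseudocount of 5 and without BAT replicate 1 or vehicle replicate 1), and with centred medians its difference was -0.00. Whether these regulators exceed tissue therefore rested on the scaling for Ebf2 and Prdm16 and not for Zic1.

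Several mitochondrial and metabolic proteins exist as a form typical of muscle and heart and a general form, and BAT uses many of the muscle forms. For Cox8b, Cox7a1, Fabp3 and Cpt1b the muscle form was lower in the cells by a wider margin than its general partner. Cox8b (chr7:148084841-148086345, mm9), a subunit of cytochrome c oxidase, was at 23.2, 27.5 and 31.7 TPM in the cells and 10010, 9941, 11770 and 10275 TPM in BAT (log2 difference -8.53, SE 0.15, adjusted p = 2.92e-09). Its general partner Cox8a was at 2030, 1981 and 1660 TPM and 3740, 3723, 3710 and 2884 TPM (log2 difference -0.89, not called on TPM). The ratio of Cox8b to Cox8a, free of scaling, was 0.0114 to 0.0191 in the cells and 2.67 to 3.56 in BAT, so the muscle form was the minor one in the cells and the major one in tissue. Cox7a1 stood at 161, 131 and 71.7 TPM and 4984, 5364, 6556 and 6182 TPM (log2 difference -5.63, SE 0.26, adjusted p = 2.63e-07), and its ratio to Cox7a2 was 0.159 to 0.422 in the cells against 2.78 to 5.88 in BAT. Cox7a2 itself was lower in the cells (log2 difference -1.67, lost with deposited RPKM), as was Cox6a1 (-1.69, lost with deposited RPKM).

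Fabp3 (chr4:129986022-129992707, mm9), the fatty acid binding protein of heart, was further below tissue than Cox8b. It was at 2.08, 1.34 and 1.83 TPM in the cells and 2690, 2772, 5417 and 3891 TPM in BAT (log2 difference -10.34, SE 0.25, adjusted p = 9.20e-09). Fabp5, the epidermal form, was at 385 to 598 TPM and 184 to 274 TPM (log2 difference 1.14, lost with TMM, centring, edgeR, DESeq2 and a total without the most abundant genes and without vehicle replicate 1). Cpt1b, the muscle isoform of the gatekeeper enzyme of mitochondrial fatty acid oxidation, was at 18.2, 23.4 and 20.6 TPM and 706, 753, 788 and 680 TPM (log2 difference -5.08, SE 0.13, adjusted p = 1.73e-08). The liver form Cpt1a was at 27.1, 57.7 and 71 TPM and 27.9, 20, 22.7 and 23.7 TPM, with vehicle replicate 1 inside the tissue range and the others above it (log2 difference 1.01, lost with TMM, centring, edgeR, DESeq2, a total without the most abundant genes, a total without muscle genes and a pseudocount of 5 and without BAT replicate 2 or 3 or vehicle replicate 2 or 3). With centred medians its difference was -0.06. Cpt1b exceeded Cpt1a by 25.3-fold to 37.6-fold in BAT, whereas their ratio was 0.289 to 0.67 in the cells. Ldhb, the heart form of lactate dehydrogenase, was at 88.9 to 112 TPM and 748 to 1065 TPM (log2 difference -3.15), and Ldha at 1076 to 2085 TPM and 1289 to 2380 TPM (log2 difference -0.27, not called).

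Some muscle forms in tissue came largely with BAT replicate 4, the library rich in sarcomere transcripts. Cox6a2 was at 5.37, 4.17 and 3.55 TPM in the cells and 58.3, 87, 74.2 and 962 TPM in BAT (log2 difference -4.71, SE 0.93, adjusted p = 0.00235), and without BAT replicate 4 its log2 difference was -3.79 (adjusted p = 3.68e-06, limma). Ckmt2, the mitochondrial creatine kinase of muscle, had no read in the vehicle libraries and was at 21.5, 71.1, 23.8 and 436 TPM in BAT (at least 999-fold lower in the cells, by 3 reads over the group). Without BAT replicate 4 that bound was 281-fold and the log2 difference -5.1, against -6.02 with it. Eno3, muscle enolase, was at 14.8, 24.6 and 27.4 TPM and 95.7, 170, 50.2 and 1074 TPM (log2 difference -2.94, lost with deposited RPKM and without vehicle replicate 1, 2 or 3), and without BAT replicate 4 the difference was -2.07. Slc25a4, the muscle ADP/ATP carrier, was at 541, 742 and 754 TPM and 724, 913, 788 and 2132 TPM and was not called (-0.61), nor was its partner Slc25a5 (0.34) or the general enolase Eno1 (-0.54). The share of muscle RNA in the values of Cox6a2, Ckmt2 and Eno3 was not tested. Cox8b, Cox7a1, Fabp3 and Cpt1b showed no such step at BAT replicate 4, where they stood at 10275, 6182, 3891 and 680 TPM.

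**Figure D2:**
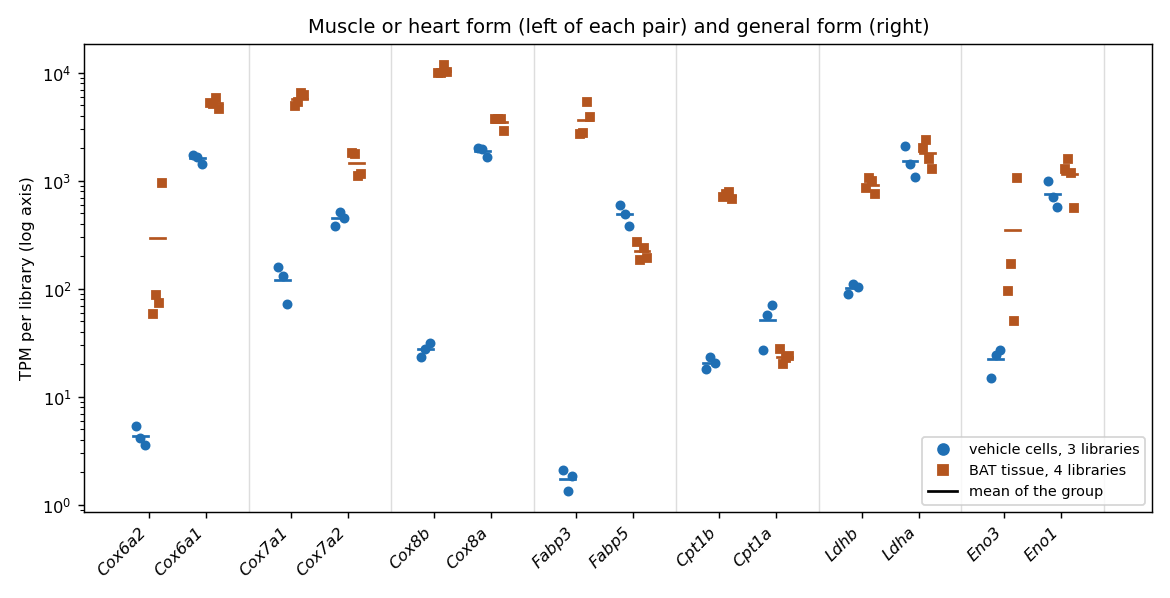
TPM per library on a log axis for 7 pairs of muscle or heart forms (left) and general forms (right), with vehicle cells as circles, BAT as squares and the group mean as a line. Cox8b lies between 23.2 and 31.7 TPM in the cells and between 9941 and 11770 TPM in BAT, while Cox8a lies within 1660 to 3740 TPM in all 7 libraries. The highest square of Cox6a2 and of Eno3 is BAT replicate 4.

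Most subunits of the mitochondrial respiratory chain were lower in the cells. Of 76 tested subunits 58 were lower and 1 higher, and the median log2 difference was -1.67 on TPM, -2.4 with TMM factors, -2.74 with centred medians and -0.87 on deposited RPKM. With TMM factors 71 were lower and 0 higher, with centred medians 73 were lower and 0 higher, and on deposited RPKM 29 were lower. Their summed level was 48270, 49829 and 42906 TPM in the vehicle libraries and 141609, 141949, 135386 and 126369 TPM in BAT. The 2 subunits furthest below tissue were Ndufa3 and Ndufb4 of complex I, at 356 to 424 against 2881 to 3562 TPM (log2 difference -3.01) and 38.8 to 44.4 against 232 to 440 TPM (-2.86). Cox4i1, the regulatory subunit of complex IV, was at 2171 to 2570 and 6059 to 7054 TPM (log2 difference -1.52, lost with deposited RPKM). Uqcrfs1, the Rieske protein of complex III, was lower too (log2 difference -1.73, lost with deposited RPKM). Of the 17 subunits not called on TPM, Ndufs1 was at 208 to 278 and 224 to 327 TPM (-0.2), Atp5a1 at 1576 to 1893 and 1528 to 2973 TPM (-0.33), and Sdha at 446 to 551 and 591 to 1198 TPM (-0.85). Atp5g2, which encodes a c subunit of ATP synthase, was the only subunit called higher (log2 difference 1.36, lost with TMM, centring, edgeR and DESeq2). The other c subunit genes also had positive differences on TPM (1.71 and 0.34) but were not called.

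In the citrate cycle 7 of 16 tested genes were lower and 1 was higher, and TMM factors raised the lower count to 15, while deposited RPKM left 2. The medians of the log2 differences were -0.94 on TPM, -1.67 with TMM factors, -2.01 with centred medians and -0.14 on deposited RPKM. Sucla2 and Suclg1, subunits of succinyl-CoA synthetase, were at 173 to 213 against 712 to 1747 TPM (log2 difference -2.68) and 260 to 321 against 967 to 2143 TPM (-2.43). Citrate synthase, Cs, was at 951 to 1221 and 1170 to 1709 TPM and was not called (-0.4). Pcx, pyruvate carboxylase, which refills the cycle and feeds citrate to fat synthesis, was the gene that stood higher in the cells, at 949, 903 and 714 TPM against 215, 243, 225 and 145 TPM (log2 difference 2.05, SE 0.2, adjusted p = 1.22e-05, lost with centring). Fatty acid oxidation had 18 of 25 tested genes lower and 1 higher, the latter Cpt1a, with medians of -1.32 on TPM, -2.06 with TMM factors, -2.4 with centred medians and -0.53 on deposited RPKM and 11 lower on deposited RPKM. Slc25a20, the carnitine-acylcarnitine carrier, was at 57.8, 63.8 and 55.4 TPM in the cells and 724, 954, 995 and 715 TPM in BAT (log2 difference -3.81, SE 0.16, adjusted p = 2.02e-07). Cpt2, its partner on the inner membrane, was at 112 to 142 and 485 to 669 TPM (log2 difference -2.14), and Acadvl, the first dehydrogenase for long chains, at 409 to 510 and 1284 to 2142 TPM (-1.86). Hadha of the trifunctional protein was lower as well (-1.32, lost with deposited RPKM). Genes of mitochondrial dynamics and biogenesis were mixed, with 7 of 35 higher and 6 lower on TPM and 1 higher and 12 lower with TMM factors, and the sign of the median changed between them (0.07 on TPM, -0.66 with TMM factors, -1.0 with centred medians and 0.83 on deposited RPKM). Tfam, which packages mitochondrial DNA, was at 47.5 to 51.6 and 20.4 to 24.1 TPM (log2 difference 1.1, lost with TMM, centring, edgeR, DESeq2, a total without the most abundant genes and a pseudocount of 5), and Pink1, a kinase of mitochondrial quality control, at 64.1 to 69.2 and 221 to 283 TPM (-1.85).

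Among the genes common to all fat cells, Adipoq and Plin1 did not pass the test, while others were lower or higher. Of 30 tested, 9 were lower, 6 higher and 15 not called (20% higher and 30% lower). With TMM factors 14 were lower and 5 higher. Their summed level was 40846, 34340 and 29128 TPM in the vehicle libraries and 60515, 65687, 73308 and 53488 TPM in BAT, with every cell library below every BAT library, and the sign of the median log2 difference changed with the scaling (-0.11 on TPM, -0.84 with TMM factors, -1.18 with centred medians and 0.67 on deposited RPKM). Pparg, the master regulator of fat cells, was at 434, 334 and 291 TPM in the cells and 331, 366, 425 and 259 TPM in BAT, with the groups overlapping (log2 difference 0.03, not called). With centred medians it was called lower, at -1.04. Adipoq, the hormone adiponectin, was at 1844, 1835 and 1651 and 1543, 1641, 1647 and 1079 TPM, Plin1, the coat of the lipid droplet, at 573, 541 and 434 and 445, 468, 461 and 259 TPM, and neither was called (log2 differences 0.28 and 0.37). The lipases Lipe and Pnpla2 were not called either (0.28 and -0.5), nor was lipoprotein lipase, Lpl (-0.84). Fabp4, the fatty acid binding protein of fat cells, was the most abundant gene of both groups, at 19144, 14001 and 11687 TPM and 39396, 42381, 46496 and 32688 TPM (log2 difference -1.45, lost with deposited RPKM). Ucp1 over Pparg, another ratio free of scaling, was 0.135 to 0.403 in the cells and 37.7 to 49.6 in BAT.

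Among the fat cell genes that did differ, secreted products went both ways. Cfd (adipsin), a complement protease, was at 4814, 5239 and 4576 TPM in the cells and 432, 782, 555 and 580 TPM in BAT (log2 difference 3.08, SE 0.2, adjusted p = 1.19e-06). Retn (resistin) was at 842 to 1172 and 94.7 to 129 TPM (log2 difference 3.18). Lep (leptin) was at 2.09, 2.72 and 2.43 TPM in the cells and 195, 149, 178 and 91.1 TPM in BAT, so no cell library came near tissue (log2 difference -5.45, SE 0.25, adjusted p = 2.63e-07). Cd36, the fatty acid translocase, was at 175 to 289 and 1383 to 1802 TPM (log2 difference -2.85). Irs1, the docking protein of the insulin receptor, was at 108 to 131 and 1.89 to 7.49 TPM (log2 difference 4.62), and Irs2 at 72.5 to 79.8 and 0.204 to 2.92 TPM (4.88). The insulin-responsive glucose transporter Slc2a4 was lower (-1.46, lost with deposited RPKM), as were Gpd1, which makes glycerol phosphate (-1.43, lost with deposited RPKM), and hexokinase 2, Hk2 (-1.23, lost with deposited RPKM and without vehicle replicate 3). Slc2a1, the general glucose transporter, was at 55.6 to 91.4 TPM in the cells and 7.73 to 20.9 TPM in BAT (2.25). The lactate exporter Slc16a3 was at 115, 61.1 and 55 and 7.87, 2.43, 0.704 and 15.6 TPM (log2 difference 3.77, SE 0.75, adjusted p = 0.0022). Across 19 tested glycolytic genes 4 were higher and 4 lower, with medians of -0.27 on TPM, -1.0 with TMM factors, -1.34 with centred medians and 0.52 on deposited RPKM. Aldoa was lower (-1.37, lost with deposited RPKM), and Gapdh and Pkm were not called (-0.29 and -0.27). Vehicle replicate 1 was the highest cell library for Slc2a1, Slc16a3, Aldoa, Gapdh and Pkm. Over the insulin and IGF list 10 of 21 tested genes were higher and 3 lower (47.6% higher and 14.3% lower), shares near those of all genes, with medians of 0.93 on TPM, 0.22 with TMM factors, -0.14 with centred medians and 1.49 on deposited RPKM. The binding proteins split, with Igfbp4 at 247 to 362 and 51.2 to 79 TPM (2.34) and Igfbp5 at 2.7 to 3.82 and 47.1 to 58.1 TPM (-3.65).

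Genes of lipid synthesis went both ways. On TPM 8 of 26 tested genes were higher and 5 lower, with TMM factors 5 and 9, and the median changed sign (0.35 on TPM, -0.38 with TMM factors, -0.72 with centred medians and 1.07 on deposited RPKM). The core enzymes Acly, Acaca and Fasn were at 217 to 405, 76.9 to 173 and 637 to 1317 TPM in the cells and 170 to 272, 70.9 to 123 and 302 to 627 TPM in BAT, and none was called (0.4, 0.21 and 0.95). Desaturases stood higher in the cells: Scd2 was at 1581, 1032 and 812 TPM against 50.2, 33.6, 23.7 and 30.3 TPM (log2 difference 5.01, SE 0.28, adjusted p = 6.12e-07), and Fads2, which desaturates polyunsaturated fatty acids, at 131, 110 and 119 TPM against 3.85, 1.1, 2.24 and 0.71 TPM (log2 difference 5.46, SE 0.33, adjusted p = 8.64e-07). Scd1 was at 2957 to 6468 and 821 to 2474 TPM (1.65, lost with TMM, centring, edgeR and DESeq2). Elovl6, which elongates palmitate, was lower, at 27.2, 19.4 and 18.7 TPM against 113, 184, 205 and 176 TPM (log2 difference -2.89, SE 0.22, adjusted p = 2.98e-06). Gpam, which starts glycerolipid synthesis, was higher (2.62), and Dgat2, which completes triglyceride, was lower (-2.15). Thrsp (Spot 14), a lipogenic gene that responds to thyroid hormone, was at 249 to 541 and 2161 to 3087 TPM (-2.74).

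Cholesterol synthesis genes were higher in the cells in 15 of 20 tested members and lower in none on TPM, with medians of 2.35 on TPM, 1.66 with TMM factors, 1.28 with centred medians and 2.43 on deposited RPKM. TMM factors left 12 higher, and centring left 11 higher and made 2 lower. Sqle, squalene epoxidase, was at 66.8, 72.6 and 72.4 TPM in the cells and 2.9, 6.33, 7.95 and 5.03 TPM in BAT (log2 difference 3.51, SE 0.26, adjusted p = 2.56e-06). Srebf2, which encodes the factor that switches these genes on, was at 100 to 104 and 4.88 to 10.7 TPM (3.53), and Fdps at 130 to 141 and 23.1 to 62.5 TPM (1.82, lost with centring, edgeR and DESeq2).

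Components of adrenergic signalling were partly present. Adrb3, the β3-adrenergic receptor of fat, was at 10.5, 20 and 21.8 TPM in the cells and 127, 142, 91.8 and 115 TPM in BAT, with vehicle replicate 1 the lowest (log2 difference -2.75, SE 0.25, adjusted p = 7.84e-06). Adrb1 was at 4.52 to 7.06 TPM in the cells and 5.78 to 13.2 TPM in BAT and was not called (-0.53). Adra1a, an α1 receptor, was lower (-2.34). Gnas, the stimulatory G protein subunit, was at 1190, 1392 and 1481 TPM and 6810, 7480, 12211 and 10252 TPM (log2 difference -2.73, SE 0.22, adjusted p = 4.09e-06), and the adenylyl cyclase Adcy3 at 14.3 to 23 and 36.1 to 97.1 TPM (-1.74, lost with deposited RPKM). The regulatory subunits of protein kinase A went opposite ways on TPM, with Prkar2b lower (-1.52, lost with deposited RPKM) and Prkar1a higher (1.73, lost with TMM, centring, edgeR and DESeq2). The phosphodiesterase Pde4b was higher (1.95, lost with centring). Across the adrenergic list 6 of 23 were higher and 7 lower on TPM, 1 and 10 with TMM factors, and the medians were 0.1 on TPM, -0.58 with TMM factors, -0.97 with centred medians and 0.74 on deposited RPKM.

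The induction mix had held a glucocorticoid and thyroid hormone, but it had been withdrawn days before the RNA was taken. Of 21 tested genes known to answer to those hormones 10 were lower in the cells and 2 higher (medians -0.77 on TPM, -1.37 with TMM factors, -1.84 with centred medians and -0.17 on deposited RPKM). Tsc22d3 (GILZ), whose row differs in transcript between the tables, was at 48.9, 60.5 and 52.8 TPM in the cells and 306, 292, 184 and 301 TPM in BAT (log2 difference -2.28, SE 0.2, adjusted p = 5.65e-06). Sgk1, a kinase induced by corticosteroids, was at 28.9 to 39.8 and 126 to 163 TPM (-2.04), Klf9 was lower (-1.39, lost with deposited RPKM), and the metallothioneins Mt1 and Mt2 were at 551 to 1006 and 142 to 316 TPM in the cells and 1891 to 3741 and 831 to 1661 TPM in BAT (-1.89 and -2.63). Pck1, which makes glycerol phosphate from lactate and amino acids in fat, was at 91.4, 117 and 117 TPM against 1760, 1753, 2442 and 1340 TPM (log2 difference -4.04, SE 0.21, adjusted p = 4.40e-07). The glucocorticoid receptor itself, Nr3c1, was at 78.8 to 79.5 and 25.7 to 31.8 TPM (1.4, lost with TMM, centring, edgeR and DESeq2). Fkbp5, another glucocorticoid target, was not called (0.71), and Errfi1, an inhibitor of the EGF receptor, was higher (2.42).

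Defining transcripts of endothelium and macrophages were at or near 0 in the culture. Most markers named here passed the filter on low values through the tissue libraries, so their counts are a description. In bulk RNA, fewer cells of a type and less RNA per cell cannot be told apart. Of 21 tested endothelial markers 20 were lower, and the only one higher was Fabp5, which fat cells also express. Pecam1, an adhesion molecule of endothelium, was at 0.146, 0.0557 and 0.153 TPM in the cells and 211, 178, 144 and 145 TPM in BAT (log2 difference -7.24, SE 0.18, adjusted p = 1.07e-08). Gpihbp1, which holds lipoprotein lipase on the capillary wall, had no read in the cells and stood at 1010, 1076, 846 and 861 TPM in BAT (at least 3683-fold lower in the cells, by 3 reads over the group, adjusted p = 6.46e-10, limma). Cdh5, Kdr and Cldn5 were at 0 to 0.0582, 0.0389 to 0.0858 and 0 TPM in the cells and 124 to 150, 29.1 to 55.4 and 17.8 to 64.4 TPM in BAT. Macrophage markers were lower in 23 of 24 tested genes. C1qa, Ptprc and Tyrobp had no read in any vehicle library and were at 106 to 216, 5.07 to 10.2 and 132 to 336 TPM in BAT, highest in replicate 1 in each case. Lyz2 was at 0.419, 0.161 and 0 TPM and 683, 314, 271 and 178 TPM (log2 difference -8.08, SE 0.39, adjusted p = 3.67e-07), Csf1r at 0.227 to 0.846 and 14.3 to 32.1 TPM, and Cd68, a lysosomal protein that other cells also make, at 3.75 to 8.15 and 53.9 to 175 TPM. Of 18 lymphocyte markers only 5 could be tested, of which 4 were lower. Cd52 had no read in the cells and was at 38 to 123 TPM in BAT, whereas Cd3e was at 0 to 0.153 and 1.16 to 3.71 TPM (-1.38, lost with deposited RPKM and a pseudocount of 5) and Cd79a at 0.352 to 0.665 and 0 to 1.26 TPM.

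The class II genes H2-Aa and H2-Ab1 had no read in the cells and were, like the macrophage markers, highest in BAT replicate 1. They were at 116 to 259 and 75.2 to 162 TPM in BAT, and Cd74, their chaperone, was at 0.141 to 0.905 and 130 to 376 TPM (log2 difference -6.87, SE 0.36, adjusted p = 4.80e-07). H2-DMa, which helps load class II molecules and was chosen after its values were seen, was at 4.12 to 6.91 TPM in the cells and 5 to 12.6 TPM in BAT and was not called (-0.51). Class I was nearer to tissue, with H2-K1 at 281 to 312 and 325 to 482 TPM (-0.37, not called) and B2m at 859 to 1016 and 1861 to 2866 TPM (-1.28, lost with deposited RPKM). In the whole antigen presentation list 7 of 14 were lower and 2 higher. Of the 15 listed, 6 were under 1 TPM in every vehicle library, so some entered the test only through the tissue and the count is a description. The interferon genes were split on TPM and mostly not called (4 of 23 higher, 5 lower, or 17.4% higher and 21.7% lower). With TMM factors 1 was higher and 11 lower, and with centred medians 0 and 14 (medians -0.19 on TPM, -0.85 with TMM factors, -1.26 with centred medians and 0.34 on deposited RPKM), and single genes of the list differed widely. Ifi27l2a was at 10.1, 11.9 and 20.3 TPM in the cells and 1985, 2087, 1742 and 2164 TPM in BAT (log2 difference -7.1, SE 0.22, adjusted p = 3.56e-08), and Rsad2 (viperin) at 0.0584, 0.0909 and 0.184 and 43.8, 52, 30.6 and 44.3 TPM (log2 difference -5.27, SE 0.22, adjusted p = 1.74e-07). Isg15 was at 10.8 to 31.8 and 15.6 to 29.5 TPM and was not called (-0.13). Of the 24 listed interferon genes, 4 were under 1 TPM in every vehicle library, so their lower counts are a description too.

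Globin and most sarcomere transcripts were at or near 0 in the cells. The sarcomere list summed to 29.1 to 36.1 TPM in the vehicle libraries, and muscle genes outside the sarcomere to 58.7 to 117 TPM. The globin Hbb-b1 had no read in the cells and was at 4076, 11225, 4379 and 3741 TPM in BAT, highest in replicate 2. Hbb-bs had none either, and Hba-a1 was at 0.396, 0 and 0.42 TPM in the cells and 2170, 5927, 2959 and 2700 TPM in BAT. Hba-a2, Hbb-bt and Hbb-b2 were likewise among the 12 genes furthest below tissue, but the globin copies are near-identical and share reads, so the value of each copy is uncertain. Alas2, of red cell heme synthesis, was at 1.47 to 2.68 and 35.7 to 158 TPM (-4.21). Of 10 tested red blood cell and platelet genes 9 were lower and 1 higher on TPM, and 9 and 0 with TMM factors. As 9 of the 11 listed were under 1 TPM in every vehicle library, that count is a description. Of 31 listed sarcomere genes 28 could be tested, and these 28 were lower in the cells on TPM. As 22 of the 31 were under 1 TPM in every vehicle library, most entered the test only through the tissue and that count supports nothing, and it was 18 on deposited RPKM. Acta1, skeletal actin, was at 0.448, 0.81 and 0.947 TPM in the cells and 575, 614, 314 and 6022 TPM in BAT (log2 difference -9.04, SE 0.93, adjusted p = 6.86e-05), and without BAT replicate 4 the difference was -8.13. Ckm, Tnni2 and Myh4 had no read in the cells and ranged over 283 to 4886, 404 to 6939 and 116 to 1979 TPM in BAT, always highest in replicate 4. Tnnt3 was at 0 to 0.236 and 611 to 8019 TPM, Mylpf at 1.47 to 2.49 and 222 to 4054 TPM, and Pvalb, the calcium buffer of fast fibres, at 0 to 0.247 and 151 to 2516 TPM. Outside the sarcomere 16 of 18 tested muscle genes were lower and none higher, against 8 lower on deposited RPKM. Of the 20 listed, 12 were under 1 TPM in every vehicle library. Many thus entered the test only through the tissue, and this count, like that of the sarcomere, supports nothing.

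Mural genes were split on TPM, while most tested nerve genes were lower in the cells. Rgs5, a defining gene of pericytes, was at 0.162, 0.0821 and 0.0582 TPM in the cells and 383, 345, 337 and 263 TPM in BAT (log2 difference -8.23, SE 0.16, adjusted p = 3.80e-09), and Higd1b at 0 to 0.319 and 27.5 to 43.4 TPM (-4.89). Pdgfrb, a receptor that pericytes share with fibroblasts, was at 174, 222 and 253 TPM against 23.4, 22.4, 20.8 and 21.2 TPM (log2 difference 3.23, SE 0.15, adjusted p = 2.97e-07), and Cspg4 and Notch3 were higher too (1.69 and 1.3, both lost with TMM, centring, edgeR and DESeq2). Over 16 mural genes 7 were lower and 5 higher on TPM (8 and 1 with TMM factors, medians -0.45 on TPM, -1.06 with TMM factors, -1.52 with centred medians and 0.13 on deposited RPKM). Of these 16, 5 were under 1 TPM in every vehicle library and entered the test only through the tissue, so the count is a description. Neural and Schwann cell genes were lower in 9 of 12 and higher in 1 on TPM, but 11 of the 18 listed were under 1 TPM in every vehicle library, and on deposited RPKM 2 were lower. Sox10, a factor of Schwann cells, was at 0 to 0.0858 and 0.608 to 2.73 TPM (-1.13, lost with deposited RPKM and a pseudocount of 5 and without vehicle replicate 1 or 2). S100b, a calcium-binding protein of glia that brown adipocytes also express, was at 17.6, 16.6 and 18.5 TPM in the cells and 718, 757, 625 and 675 TPM in BAT (log2 difference -5.22, SE 0.13, adjusted p = 9.51e-09).

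**Figure D3:**
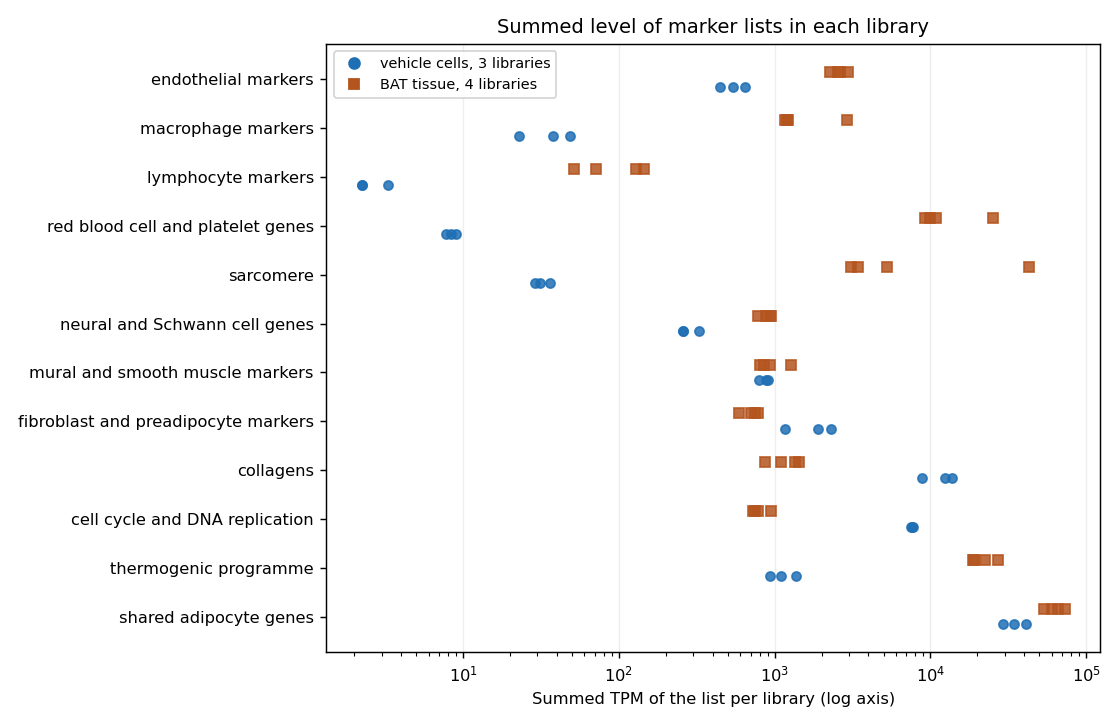
Summed TPM of 12 lists in each library, on a log axis, with vehicle cells as circles and BAT as squares. The macrophage, lymphocyte, red cell and sarcomere sums of the cells lie below every BAT library, and the collagen and cell cycle sums lie above every BAT library. The endothelial sum of the cells is 447 to 642 TPM, of which Fabp5 gives 385 to 598 TPM.

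The cells made far more collagen and fibronectin transcript than the tissue. Collagens were higher in 23 of 25 tested genes and lower in 1, with medians of 2.75 on TPM, 2.3 with TMM factors, 1.67 with centred medians and 2.9 on deposited RPKM, and their summed level was 8769, 12428 and 13705 TPM in vehicle replicates 1 to 3 and 1433, 868, 1098 and 1341 TPM in BAT. Of the 28 listed, 7 were under 1 TPM in every BAT library. Some thus entered the test only through the cells, so the count is a description. Col1a1, the main chain of type I collagen, was at 1670, 2611 and 2908 TPM against 116, 53.6, 111 and 146 TPM (log2 difference 4.53, SE 0.33, adjusted p = 2.17e-06). Vehicle replicate 1 was the lowest of the cells and still above every BAT library. Col12a1, which decorates collagen fibres, was at 95.9, 228 and 293 and 3.21, 2.12, 3.45 and 1.91 TPM (log2 difference 5.69, SE 0.35, adjusted p = 9.94e-07), and Col6a1, a chain of the beaded filaments around fat cells, at 1576, 1886 and 2025 and 83.9, 45.9, 51.4 and 74.1 TPM (log2 difference 4.85, SE 0.22, adjusted p = 2.63e-07). Col1a2 and Col3a1 were higher too (3.2 and 2.48). The gene that went the other way was Col13a1, a transmembrane collagen with no read in the cells and 1.44 to 2.81 TPM in BAT (lower, -1.63, lost with deposited RPKM and a pseudocount of 5).

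Among other matrix genes 31 of 46 were higher and 7 lower (medians 2.38 on TPM, 1.65 with TMM factors, 1.31 with centred medians and 2.66 on deposited RPKM). Fn1, fibronectin, was at 820, 1250 and 1619 TPM in the cells and 19, 9.67, 12.5 and 11.3 TPM in BAT (log2 difference 6.43, SE 0.27, adjusted p = 1.81e-07). Vcan, the proteoglycan versican, was at 404, 581 and 754 and 4.66, 1.91, 2.32 and 5.63 TPM (log2 difference 7.01, SE 0.32, adjusted p = 2.63e-07), with a different transcript in each table. Thbs1, thrombospondin, was at 407, 816 and 1032 and 10.1, 10.2, 8.34 and 9.63 TPM (log2 difference 6.05, SE 0.28, adjusted p = 2.63e-07), and Lox, which crosslinks collagen, at 1174, 1385 and 1994 and 33.8, 24.7, 35.2 and 28.7 TPM (log2 difference 5.56, SE 0.2, adjusted p = 9.18e-08). Tnc and Timp1 were higher as well (4.97 and 4.42). Proteoglycans and elastic fibre genes went both ways, with Bgn (biglycan) and Fbln2 (fibulin 2), chosen after their values were seen, higher (4.17 and 3.67) and the following lower. Dcn, decorin, whose row differs in transcript, was at 11.5, 15.5 and 22 TPM in the cells and 484, 351, 401 and 504 TPM in BAT (log2 difference -4.68, SE 0.22, adjusted p = 2.83e-07). Lum, lumican, was at 3.82 to 8.87 and 24.2 to 51.5 TPM (-2.45), Eln, elastin, at 1.61 to 2.2 and 22.3 to 32.1 TPM (-3.21), Timp3 at 26.5 to 53 and 194 to 230 TPM (-2.49), and Mmp3 at 0 to 0.247 and 9.23 to 18.9 TPM (-3.81). Sparc was at 1601 to 2479 and 1261 to 1871 TPM and was not called (0.42). Dcn over Col1a1, a ratio free of scaling, was 0.00594 to 0.00758 in the cells and 3.46 to 6.54 in BAT.

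Markers of fibroblasts and fat precursors showed the same division, with 11 of 19 tested genes higher and 5 lower. Of the 24 listed, 6 were under 1 TPM in every vehicle library and 4 in every BAT library, so that count is a description. Sfrp2, a secreted modulator of Wnt signals, was at 588, 1189 and 1412 TPM against 9.37, 5.79, 6.71 and 3.18 TPM (log2 difference 7.17, SE 0.36, adjusted p = 4.53e-07), and its relative Sfrp4 differed by 4.52. Pdgfra, which marks fat precursors and other fibroblasts and whose row differs in transcript, was at 41.4 to 77.6 and 4.1 to 8.59 TPM (2.91). Cd34 and Ly6a (Sca-1), which mark precursors in tissue and which endothelium also carries, were at 2.95 to 3.98 and 19.5 to 22.8 TPM in the cells and 59.8 to 68.9 and 373 to 569 TPM in BAT (-3.83 and -4.44). How many cells of the dish had remained unlike fat cells was not tested. Secreted signals included Cxcl12, a chemokine of stromal cells, at 940, 2309 and 3218 TPM against 29.6, 25.5, 17.9 and 19.8 TPM (log2 difference 6.33, SE 0.38, adjusted p = 1.09e-06), where vehicle replicate 1 was again lowest of the cells. Grem1, an antagonist of bone morphogenetic proteins, was at 42.6 to 148 and 0 to 2.05 TPM (6.07), and the growth factor Ptn at 95.7 to 171 and 0 to 0.828 TPM (6.42). In the chemokine and acute phase list 9 of 24 were higher and 10 lower (medians 0.33 on TPM, -0.31 with TMM factors, -0.74 with centred medians and 0.62 on deposited RPKM). Of the 29 listed, 11 were under 1 TPM in every vehicle library. Some thus entered the test only through the tissue, so this count is a description. Ccl11 (eotaxin) was at 0 to 0.158 and 39.2 to 51.2 TPM (-5.41), the complement inhibitor Serping1 at 1.67 to 2.79 and 90.6 to 122 TPM (-5.08), haptoglobin, Hp, at 530 to 1182 and 3281 to 3783 TPM (-2.24), and complement C3 at 573 to 829 and 99.2 to 203 TPM (2.16).

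The study's title concerns actomyosin tension, and genes of the contractile apparatus went both ways. Of 32 tested actomyosin genes 19 were higher and 3 lower on TPM (59.4% higher and 9.38% lower), against 12 and 3 with TMM factors and 10 and 4 with centred medians. The median log2 difference was 1.27 on TPM, 0.54 with TMM factors, 0.2 with centred medians and 2.03 on deposited RPKM. Myh9 and Myh10, heavy chains of nonmuscle myosin II and targets of blebbistatin, were both higher. Myh9 was at 403, 453 and 530 TPM in the cells and 69.1, 53.7, 41.4 and 49.4 TPM in BAT (log2 difference 3.1, SE 0.19, adjusted p = 8.50e-07). Myh10 was at 78.1, 80.4 and 88.3 and 7.62, 6.93, 7.13 and 5.74 TPM (log2 difference 3.41, SE 0.15, adjusted p = 2.33e-07). Myh14, the remaining nonmuscle heavy chain, chosen after its values were seen, went the other way, at 0.136, 0.158 and 0.181 TPM in the cells and 2.38, 4.55, 2.37 and 4.33 TPM in BAT (log2 difference -1.89, SE 0.29, adjusted p = 2.18e-04, lost with deposited RPKM and a pseudocount of 5). Myh11, the smooth muscle heavy chain of vessel walls, was at 0.169, 0.155 and 0.496 TPM in the cells and 27.1, 22.8, 22.5 and 22.5 TPM in BAT (log2 difference -4.28, SE 0.2, adjusted p = 2.97e-07). Actb was at 2086, 2276 and 2613 and 2322, 1873, 2075 and 2407 TPM and was not called (0.1), whereas Actg1 was at 327, 467 and 507 and 57.6, 71.6, 35.2 and 34.5 TPM (log2 difference 3.14, SE 0.28, adjusted p = 6.36e-06). The ratio of Actg1 to Actb was 0.157 to 0.205 in the cells and 0.0143 to 0.0382 in BAT. The crosslinker Flna was higher (3.71), as were the calponin Cnn2 (3.6), the focal adhesion protein Vcl (2.63) and the nuclear lamin Lmna, whose row differs in transcript (2.96). Acta2 was at 178 to 300 and 64.7 to 94.7 TPM (1.66, lost with TMM, centring, edgeR and DESeq2).

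YAP and TAZ are transcriptional coactivators that respond to tension in the actin skeleton. Of 31 tested genes of their pathway and targets 24 were higher and none lower on TPM, 16 were higher with TMM factors, and 11 with centred medians, which made 1 lower (medians 1.75 on TPM, 1.09 with TMM factors, 0.68 with centred medians and 2.2 on deposited RPKM). Targets were not counted apart from members of the pathway, so the count is no measure of YAP and TAZ activity. Yap1 was at 63.5 to 86.1 and 25 to 28.1 TPM (1.46, lost with TMM, centring, edgeR and DESeq2), and Wwtr1, which encodes TAZ, at 66.5 to 75 and 40.2 to 49.6 TPM (0.68, not called). Among targets Ctgf was at 76, 119 and 119 TPM in the cells and 20.4, 9.99, 6.29 and 15.5 TPM in BAT (log2 difference 3.0, SE 0.35, adjusted p = 3.59e-05), Axl at 85 to 128 and 13.7 to 22.2 TPM (2.5), and Myof at 62.3 to 123 and 2.81 to 8.59 TPM (3.99). Cyr61 was at 173 to 379 and 81.1 to 109 TPM (1.53, lost with TMM, centring, edgeR and DESeq2). Ankrd1 was at 29.4, 47.4 and 55 TPM in the cells and 0, 1.41, 0 and 60.3 TPM in BAT, where replicate 4 alone exceeded the cells, and without that library its difference was 5.02 (adjusted p = 1.56e-05, limma) against 3.64, lost with TMM, centring, edgeR, DESeq2, a total without the most abundant genes, a pseudocount of 5 and a filter at a mean of 5 TPM and without BAT replicate 1, 2 or 3 or vehicle replicate 1, 2 or 3 with it. Mob1a, an activator of the Hippo kinases, was at 102 to 124 and 0 to 13.4 TPM (4.47). In the cells Ctgf and Cyr61 were lowest in vehicle replicate 1, as the collagens were.

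The cells were transcribing the genes of cell division at levels far above those of the tissue. Of 44 tested cell cycle and replication genes 40 were higher and none lower on TPM, 38 were higher with TMM factors and 37 with centred medians, each with 1 lower, and the median log2 difference was 4.58 on TPM, 3.89 with TMM factors, 3.51 with centred medians and 4.4 on deposited RPKM. Top2a, the topoisomerase that untangles chromosomes, was at 373, 330 and 322 TPM in the cells and 8.89, 1.75, 3.87 and 3.47 TPM in BAT (log2 difference 6.11, SE 0.35, adjusted p = 7.21e-07). Mki67, which encodes the proliferation antigen Ki-67, was at 261, 196 and 194 and 7.37, 2.95, 4.66 and 3.37 TPM (log2 difference 5.34, SE 0.26, adjusted p = 3.30e-07). Cdk1, the kinase that starts mitosis, was at 148, 172 and 164 and 6.82, 0.867, 1.76 and 1.49 TPM (log2 difference 5.68, SE 0.42, adjusted p = 2.49e-06), its cyclin Ccnb1 at 91.9 to 97 and 0 to 3.75 TPM (5.22), and the replication helicase subunit Mcm2 at 198 to 212 and 0.998 to 5.15 TPM (5.66). Pcna, the sliding clamp, was at 504 to 539 and 27 to 47.1 TPM (3.67). Of the inhibitors, Cdkn1a (p21) was at 217 to 365 and 320 to 406 TPM and was not called (-0.43), nor was the cyclin Ccnd1 (0.21). Cdkn2a (chr4:88920377-88940523, mm9), which encodes the tumour suppressors p16INK4a and p19ARF, was at 730, 1039 and 1115 TPM in the cells and 6.23, 0, 0 and 0 TPM in BAT, where only replicate 1 had reads (log2 difference 9.17, SE 0.72, adjusted p = 1.57e-05). The mitotic genes and Cdkn2a were thus both high in each of the 3 vehicle libraries.

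Promoters of cell cycle genes often carry the CHR element (cell cycle genes homology region, TTTGAA), bound by MuvB complexes, and CCAAT boxes, bound by NF-Y. Both were searched on both strands in the 250 bases before each RefSeq start (GRCm38.p6), where ATTGG is the CCAAT box and TTCAAA the CHR read on the other strand. The 44 listed genes matched 36 promoters of 32 genes. A CCAAT box was found in 66.7% of them and in 33.8% of all 32851 promoters, a CHR in 22.2% and 16%, and both in 19.4% and 5.55%. A match is a string of letters and not a proven site. The 4 promoters below were picked because they hold both elements and belong to mitotic genes of the list, namely Cdk1 (chr10:69352913-69353162), Top2a (chr11:99024190-99024439), Mki67 (chr7:135716380-135716629) and Cdc20 (chr4:118437344-118437593), the activator of the anaphase-promoting complex, chosen after its values of 162 to 196 TPM in the cells and 1.79 to 4.87 TPM in BAT had been seen. All lie on the minus strand and are written 5′ to 3′ towards the gene, with CHR and CCAAT letters in capitals.
Cdk1: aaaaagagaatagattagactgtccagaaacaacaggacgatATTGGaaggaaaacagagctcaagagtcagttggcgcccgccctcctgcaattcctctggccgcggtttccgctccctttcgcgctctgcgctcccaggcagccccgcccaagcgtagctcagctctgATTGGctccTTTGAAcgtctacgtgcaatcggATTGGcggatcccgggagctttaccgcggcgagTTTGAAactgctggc
Top2a: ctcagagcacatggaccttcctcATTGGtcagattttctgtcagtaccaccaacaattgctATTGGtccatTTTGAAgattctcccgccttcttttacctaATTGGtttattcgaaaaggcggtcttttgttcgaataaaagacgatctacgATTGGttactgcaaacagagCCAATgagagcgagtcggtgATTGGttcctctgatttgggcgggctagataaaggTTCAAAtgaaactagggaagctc
Mki67: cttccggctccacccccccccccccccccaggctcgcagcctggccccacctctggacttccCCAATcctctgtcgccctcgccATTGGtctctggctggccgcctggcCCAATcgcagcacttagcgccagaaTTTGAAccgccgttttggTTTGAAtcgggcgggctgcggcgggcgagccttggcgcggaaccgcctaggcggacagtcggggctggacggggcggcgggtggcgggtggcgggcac
Cdc20: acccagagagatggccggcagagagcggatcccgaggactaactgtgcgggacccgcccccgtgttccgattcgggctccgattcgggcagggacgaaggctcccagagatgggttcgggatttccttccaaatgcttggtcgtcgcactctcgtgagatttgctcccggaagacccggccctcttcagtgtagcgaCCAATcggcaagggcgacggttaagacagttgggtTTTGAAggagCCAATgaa
Cdk1 holds 2 CHR and 3 CCAAT matches, Top2a 2 and 6, Mki67 2 and 3, and Cdc20 1 and 2, in the same order.

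The Hox genes, which record position along the body from head (low paralog numbers) to tail (high numbers), gave the cells and the tissue different codes. In paralog groups 9 to 11, 7 of 8 tested genes were higher in the cells and 1 was lower, and all 7 kept the call with TMM factors and centred medians. The lower one, of the Hoxd cluster, kept its call in both as well. Of the higher ones, all but the Hoxb member passed the filter on low values only through the cells, so their count is a description. In groups 6 to 8, 4 of 8 were higher and 1 lower, and 3 of the higher ones kept the call in all 3 scalings. In groups 1 to 5, 4 of 12 were higher and 2 lower, and 1 of the higher ones kept the call in all 3 scalings. Hoxc10 (chr15:102797227-102802328, mm9) was at 46.6, 47.1 and 52.6 TPM in the cells and 0.756, 0.432, 3.51 and 0 TPM in BAT (log2 difference 4.76, SE 0.44, adjusted p = 8.73e-06), and 0.449 to 0.813 TPM in WAT. Hoxa10 was at 50.9, 62 and 59.2 and 0, 0, 1.55 and 0.982 TPM (log2 difference 5.28, SE 0.35, adjusted p = 1.42e-06), with 0 to 0.694 TPM in WAT. Hoxc11 was at 22.4, 28.2 and 36.4 TPM in the cells and had no read in any BAT library, which makes it at least 36.6-fold higher in the cells when 3 reads over the BAT group are the limit. Hoxc9 was at 19 to 21.3 and 0 to 4.88 TPM (3.55). Within the same cluster Hoxc4 and Hoxc8 were lower in the cells, at 4.05 to 6.77 against 13.8 to 27.3 TPM (-1.77, lost with deposited RPKM) and 4.75 to 7.52 against 13.4 to 19.7 TPM (-1.27, lost with deposited RPKM and a pseudocount of 5). Hoxc10 over Hoxc8, a ratio free of scaling, was 6.2 to 9.91 in the cells and 0 to 0.261 in BAT. Hoxa5 was at 31.5 to 37 and 43.4 to 74 TPM and was not called (-0.78). The labels do not say from which depot the line came.

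**Figure D4:**
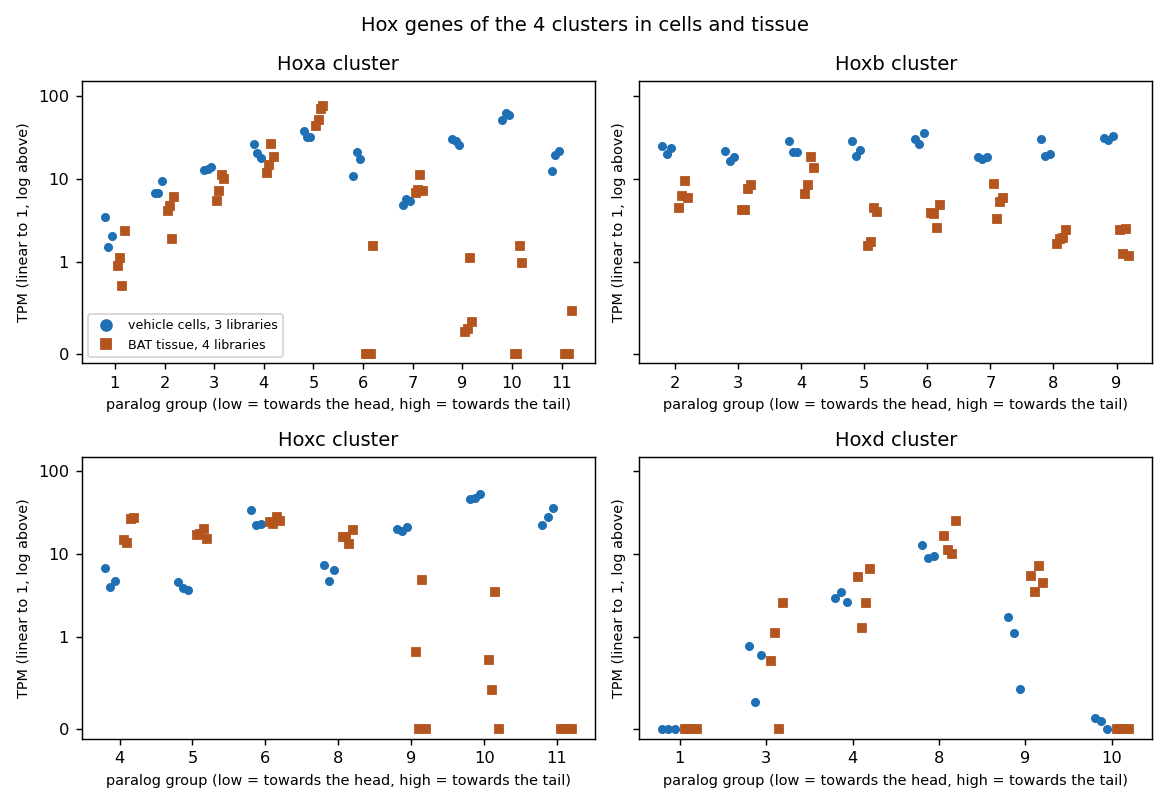
TPM of the Hox genes in each library by cluster and paralog group, linear up to 1 TPM and logarithmic above, with vehicle cells as circles and BAT as squares. Paralog groups 9 to 11 of the Hoxa and Hoxc clusters lie above 10 TPM in every cell library and below 5 TPM in every BAT library, while Hoxc4 and Hoxc5 lie lower in the cells.

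Other position and lineage factors also differed. Over the whole positional list 25 of 42 genes were higher and 7 lower on TPM, and 16 and 13 with centred medians. Of the 45 listed, 5 were under 1 TPM in every BAT library and 6 in every vehicle library, so these counts are a description. En1, which marks the dermomyotome cells that give rise to brown fat and dermis, was at 10.9 to 13.5 and 0 to 1.41 TPM (3.11). Meox1 and Meox2, homeobox genes of the somite of which Meox2 is also an endothelial gene, were at 0.198 to 0.695 and 0 TPM in the cells and 8.35 to 17 and 13.5 to 25.2 TPM in BAT (-3.2 and -4.4). Tbx15 was at 34, 29.6 and 35.9 and 4.05, 4.87, 6.11 and 20.5 TPM (2.05, lost with centring, edgeR and DESeq2). The 12 genes furthest above tissue also included Mir5114, a row of 60 bases at 1185 to 1589 and 0 to 24 TPM, and the pseudogene Gm1821 at 305 to 454 and 3.02 to 8.21 TPM, both of which may hold reads of other transcripts and are uncertain.

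**Figure D5:**
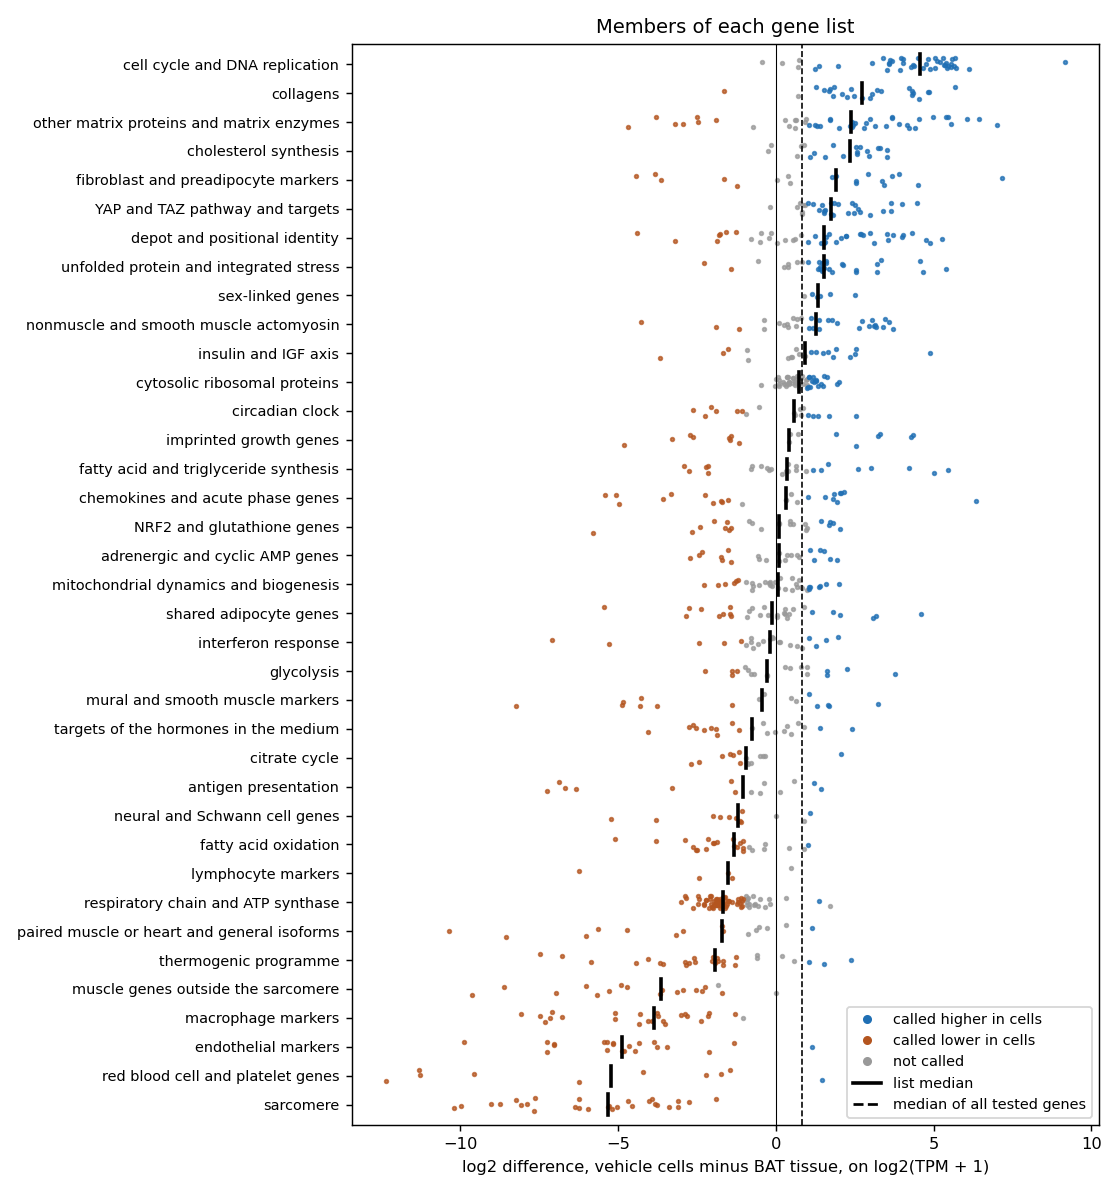
Log2 difference, vehicle cells minus BAT tissue, of each tested member of 37 gene lists on log2(TPM + 1), coloured by call, with the list median as a bar, 0 as a solid line and the median of all tested genes (0.84) as a dashed line. Cell cycle, collagen, matrix and cholesterol genes have the highest medians, and sarcomere, blood, endothelial, macrophage and thermogenic genes are among the lowest.

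Stress and amino acid genes stood above tissue in part. Of 32 genes of the unfolded protein and integrated stress responses 24 were higher and 2 lower on TPM, and 11 and 3 with TMM factors (medians 1.52 on TPM, 0.79 with TMM factors, 0.45 with centred medians and 2.19 on deposited RPKM). Genes whose call held in every scaling included Aldh1l2, of mitochondrial folate metabolism, at 80.7 to 89.3 and 0.527 to 1.67 TPM (5.41), the amino acid transporter Slc7a5 at 66.1 to 78 and 0.953 to 3.7 TPM (4.67), and Psat1, of serine synthesis, at 297 to 357 and 8.01 to 30.6 TPM (4.56). The chaperone Hspa5 was higher (1.4, lost with TMM, centring, edgeR and DESeq2) and Atf3 lower (-1.42, lost with deposited RPKM). Ribosomal protein genes were higher in 17 of 51 on TPM, in 2 with TMM factors and in 0 with centred medians (medians 0.72 on TPM, -0.01 with TMM factors, -0.35 with centred medians and 1.51 on deposited RPKM), so their direction was set by the scaling. Rplp0 and Rpl3 were the furthest above tissue (2.02 and 1.95, both lost with centring and the latter also with edgeR and DESeq2). Antioxidant genes were split (5 of 24 higher, 8 lower, medians 0.12 on TPM, -0.62 with TMM factors, -0.96 with centred medians and 0.91 on deposited RPKM). The extracellular enzymes Sod3 and Gpx3 were at 4.56 to 6.02 and 399 to 418 TPM in the cells and 271 to 579 and 2109 to 3390 TPM in BAT (-5.78 and -2.66), and Gclc, of glutathione synthesis, was higher (2.04, lost with centring).

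Clock, imprinted and sex-linked genes complete the lists. Of 18 clock genes 5 were higher and 6 lower (medians 0.58 on TPM, -0.13 with TMM factors, -0.49 with centred medians and 1.16 on deposited RPKM). Dbp and Nr1d1, which peak by day in mice, were lower (-2.24 and -2.04) and Cry1 was higher (2.56), and the labels used here give no time of collection. Among imprinted growth genes 6 of 17 were higher and 8 lower (medians 0.43 on TPM, -0.29 with TMM factors, -0.64 with centred medians and 1.04 on deposited RPKM). The maternally silenced Peg3 was at 0.497 to 0.874 and 11.1 to 21.5 TPM (-3.29) and Nnat, a row with different transcripts, at 5.72 to 8.74 and 165 to 310 TPM (-4.81), whereas Grb10 was at 130 to 163 and 11.6 to 16 TPM (3.31) and Peg10 at 36.7 to 43.9 and 0.632 to 1.51 TPM (4.34). H19 was at 60.3, 60 and 64.6 TPM in the cells and 19.6, 30.8, 23.5 and 290 TPM in BAT, highest in replicate 4, and was not called (0.43), and Igf2, a row with different transcripts, was lower (-1.48, lost with deposited RPKM and a pseudocount of 5). Xist was at 0.0245 to 0.11 TPM in the cells and 0.061 to 2.53 TPM in BAT, and the Y-linked genes Kdm5d and Ddx3y were expressed in all 7 libraries (31.7 to 34 and 52.7 to 66.5 TPM in the cells, 4.61 to 5.25 and 12.3 to 50.8 TPM in BAT).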

How the data were processed

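RNA of 3 vehicle-treated cell libraries and 4 BAT libraries was compared, and 7 further libraries gave levels only. The submitters' processing notes list STAR, HOMER, edgeR and the mouse build mm9, with no version given. The authors deposited RPKM made with HOMER, per the file headers, with 1 transcript per gene, and a separate table of gene signal that holds scaled counts. Dividing the deposited signal by its step recovered reads, whole to a tolerance of 0.1 read in 100% of values up to 1000 reads, and these gave depths and the count tests. Reads in genes were 1014959 to 14176846 per library, and bounds by 3 reads cover counting error only.

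The 24421 genes were joined by symbol. For 1423 of them the tables use different transcripts. The header of the cell table names 3 further libraries not analysed here. Each deposited RPKM column was rescaled to a sum of 1000000 (TPM), which uses 1 library at a time. Genes with at least 1 TPM in at least 3 of the 7 libraries were tested with limma (trend and robust variances, two-sided, group only) on log2(TPM + 1), with Benjamini-Hochberg adjustment over all genes. The fit was also run on simulated reads in which few genes changed, about equally in both directions. That simulation cannot test the scaling between cells and tissue. Differences understate the change of low genes.

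The members of the comparison and the 37 gene lists were chosen with earlier results of these data known. 981 listed genes had 973 rows, and 919 were tested. Genes were named for their role, as the 12 furthest differences in each direction with a mean of at least 20 TPM in the higher group and no overlap, or as the 2 furthest members of a list in each direction. Some genes that this rule names are not reported here. Alternatives changed the scaling, pseudocount, filter, libraries and tool. Fits used limma 3.58.1 in R 4.3.3, with DESeq2 1.42.0 and edgeR 4.0.16 as alternatives. Promoters came from RefSeq (GRCm38.p6).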

Additional observations from a re-analysis of the deposited data

Results flagged for a closer look

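In the 4 BAT libraries, single values stood apart from the other 3 by Dixon's criterion, which flags about 1 group in 20 by chance and cannot be applied to the 3 vehicle libraries. The summed level of sarcomere in BAT replicate 4 was 43113 TPM and that of muscle genes outside the sarcomere 16574 TPM, the highest of the 4. High in BAT replicate 4 were Acta1 at 6022, Ankrd1 at 60.3, Cd3e at 3.71, Ckm at 4886, Ckmt2 at 436, Cox6a2 at 962, Eno3 at 1074 and H19 at 290 TPM. Also high in BAT replicate 4 were Myh4 at 1979, Mylpf at 4054, Pvalb at 2516, Slc25a4 at 2132, Tbx15 at 20.5, Tnni2 at 6939 and Tnnt3 at 8019 TPM. Low in BAT replicate 4 were Cox8a at 2884, Pcna at 27 and Plin1 at 259 TPM. The summed level of macrophage markers in BAT replicate 1 was 2892 TPM, the highest of the 4. High in BAT replicate 1 were C1qa at 216, Cd74 at 376, Cdc20 at 4.87, Cdk1 at 6.82, Cdkn2a at 6.23, Mir5114 at 24, Myh11 at 27.1 and Ptprc at 10.2 TPM. Also high in BAT replicate 1 were Tyrobp at 336 and Xist at 2.53 TPM. The summed level of red blood cell and platelet genes in BAT replicate 2 was 25078 TPM, the highest of the 4. High in BAT replicate 2 were Alas2 at 158, Hbb-b1 at 11225, Hbb-b2 at 1865, Hbb-bs at 11117 and Hbb-bt at 1869 TPM. Low in BAT replicate 2 were Igf2 at 6.45 and Tnc at 1.05 TPM. High in BAT replicate 3 were Grem1 at 2.05 and Lipe at 726 TPM. Low in BAT replicate 3 was Tsc22d3 at 184 TPM. What sets these libraries apart was not tested.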

How the results depend on the processing

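Of 203 named genes called, 155 kept call and direction in every alternative that could test them. Leaving out each library in turn gave 5681 to 6405 genes higher and 1981 to 2025 lower. Counts of calls that moved by more than 1.5 times follow, for each list in the direction with more calls on TPM, with the count on TPM in parentheses. With TMM factors, calls were higher in all genes 3692 (6324), lipid synthesis 5 (8), glycolysis 2 (4), actomyosin 12 (19), ribosomal 2 (17), mitochondrial dynamics 1 (7), stress 11 (24), sex-linked 2 (5) and lower in citrate cycle 15 (7), shared adipocyte 14 (9), interferon 11 (5). With centred medians, calls were higher in all genes 2365 (6324), lipid synthesis 5 (8), glycolysis 2 (4), actomyosin 10 (19), YAP and TAZ 11 (24), ribosomal 0 (17), mitochondrial dynamics 0 (7), stress 10 (24), positional 16 (25), sex-linked 1 (5), insulin and IGF 4 (10) and lower in all genes 4213 (2139), citrate cycle 15 (7), shared adipocyte 17 (9), interferon 14 (5). On deposited RPKM, calls were higher in lipid synthesis 14 (8), glycolysis 9 (4), ribosomal 44 (17), mitochondrial dynamics 15 (7), insulin and IGF 16 (10) and lower in all genes 832 (2139), thermogenic 13 (22), respiratory chain 29 (58), citrate cycle 2 (7), fatty acid oxidation 11 (18), shared adipocyte 4 (9), adrenergic 3 (7), sarcomere 18 (28), other muscle 8 (16), lymphocyte 1 (4), interferon 2 (5), neural 2 (9), antioxidant 3 (8), chemokine 5 (10), clock 3 (6), imprinted 4 (8). With edgeR, calls were higher in all genes 2911 (6324), lipid synthesis 5 (8), glycolysis 2 (4), actomyosin 11 (19), YAP and TAZ 13 (24), ribosomal 1 (17), mitochondrial dynamics 1 (7), stress 11 (24), positional 16 (25), sex-linked 1 (5), insulin and IGF 4 (10) and lower in citrate cycle 15 (7), shared adipocyte 15 (9), lymphocyte 2 (4), interferon 13 (5). With DESeq2, calls were higher in all genes 3147 (6324), lipid synthesis 5 (8), glycolysis 2 (4), actomyosin 11 (19), YAP and TAZ 13 (24), ribosomal 1 (17), mitochondrial dynamics 1 (7), stress 11 (24), sex-linked 1 (5), insulin and IGF 5 (10) and lower in all genes 5118 (2139), citrate cycle 15 (7), shared adipocyte 15 (9), lymphocyte 10 (4), antigen presentation 11 (7), interferon 13 (5). With a total without the most abundant genes, calls were higher in mitochondrial dynamics 4 (7) and lower in citrate cycle 11 (7). With a pseudocount of 5, calls were higher in mitochondrial dynamics 4 (7) and lower in all genes 1286 (2139), other muscle 10 (16), lymphocyte 1 (4), interferon 2 (5), neural 2 (9), imprinted 5 (8). With a filter at a mean of 5 TPM, calls were lower in all genes 1312 (2139), lymphocyte 1 (4), interferon 3 (5), neural 3 (9). With adjusted p under 0.05 alone, calls were higher in ribosomal 37 (17), mitochondrial dynamics 14 (7), insulin and IGF 16 (10) and lower in citrate cycle 13 (7), interferon 8 (5). Among values called in at least 1 of both settings, the sign changed for Cpt1a (-0.06 with centred medians), Pparg (-1.04 with centred medians) and Prdm16 (-0.00 with centred medians), and the cause was not tested. A further 29 named genes changed sign in some alternative while uncalled in both settings. The scalings differ by construction in which total or median is held equal, and deposited RPKM counts reads outside genes in its total. Replicate numbers 1 to 3 occur in both groups. Deviations from the group means of same-numbered libraries correlated at -0.138, 0.06 and -0.111, and those of libraries with unlike numbers at -0.13 to 0.166. The check thus gave no sign that the numbers pair the libraries, but with so few libraries it cannot exclude a pairing. With the replicate number as a block, 6416 genes were higher and 2128 lower, and Sox10 was not called. Keeping only genes with the same transcript in both tables, an alternative chosen after seeing the data, ended 0 calls of named genes that it could test. With TMM factors, the counts in the direction with fewer calls on TPM moved for thermogenic (higher 1 against 3), respiratory chain (higher 0 against 1), fatty acid oxidation (higher 0 against 1), paired muscle or heart and general isoforms (higher 0 against 1), lipid synthesis (lower 9 against 5), glycolysis (lower 9 against 4), adrenergic (higher 1 against 6), targets of the hormones in the medium (higher 1 against 2), endothelial markers (higher 0 against 1), mural and smooth muscle markers (higher 1 against 5), antigen presentation (higher 0 against 2), interferon (higher 1 against 4), neural (higher 0 against 1), red blood cell and platelet genes (higher 0 against 1), cell cycle and DNA replication (lower 1 against 0), ribosomal (lower 1 against 0), mitochondrial dynamics (lower 12 against 6), antioxidant (higher 3 against 5), clock (higher 2 against 5), insulin and IGF (lower 5 against 3). With centred medians, the counts in the direction with fewer calls on TPM moved for thermogenic (higher 1 against 3), respiratory chain (higher 0 against 1), citrate cycle (higher 0 against 1), fatty acid oxidation (higher 0 against 1), paired muscle or heart and general isoforms (higher 0 against 1), lipid synthesis (lower 11 against 5), shared adipocyte (higher 3 against 6), glycolysis (lower 10 against 4), cholesterol synthesis (lower 2 against 0), adrenergic (higher 0 against 6), targets of the hormones in the medium (higher 1 against 2), YAP and TAZ (lower 1 against 0), endothelial markers (higher 0 against 1), mural and smooth muscle markers (higher 1 against 5), antigen presentation (higher 0 against 2), interferon (higher 0 against 4), neural (higher 0 against 1), red blood cell and platelet genes (higher 0 against 1), cell cycle and DNA replication (lower 1 against 0), ribosomal (lower 4 against 0), mitochondrial dynamics (lower 17 against 6), antioxidant (higher 0 against 5), chemokine (higher 3 against 9), clock (higher 1 against 5), positional (lower 13 against 7), insulin and IGF (lower 5 against 3). The low depth of the BAT libraries limits what can be seen of genes near 1 TPM in BAT.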
